A study of Mus musculus with 11 samples.

Results

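The genes that encode the proteins of the cytosolic and the mitochondrial ribosome were examined in mouse fibrosarcomas after doxorubicin. They were selected by symbol (Rpl, Rps, Rplp, Rpsa, Mrpl or Mrps followed by the subunit number), with at least 1 probe detected at p under 0.05 on 2 or more arrays. The pattern matched 132 of the 10623 genes tested, and every matching annotated gene passed the detection filter. Of these, 57 encode cytosolic ribosomal proteins (34 of the large and 23 of the small subunit) and 72 encode mitochondrial ones (45 of the large and 27 of the small subunit by name). The remaining 3 matches encode no ribosomal protein (the kinases Rps6ka3 and Rps6ka5, and Rps19bp1) and were kept apart. The rule uses symbols and detection, and no difference between groups.

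The tumours were MCA fibrosarcomas grown under the skin of C57BL/6 mice aged 10 to 12 weeks and measured on Illumina bead arrays. Hosts were wild type (WT) or FPR1-/- (KO), the knockout of formyl peptide receptor 1. When the tumour surface was 25 to 45 mm2 the tumour received doxorubicin (DX, 2.9 mg/kg in 50 µL PBS) or PBS, and it was taken 2 days later. WT PBS, WT DX and KO PBS had 3 tumours each and KO DX had 2. The genotype is that of the mice that carried the tumours. The labels give each tumour a number of its own, from 205 to 215, and it was not settled whether the tumour cells differed. The labels do not say whether RNA was pooled, so p-values describe the spread between these samples.

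Cytosolic ribosomes translate nuclear messages and are built from nucleolar ribosomal RNA and nuclear-encoded proteins. Many of their messages start with a short run of pyrimidines, the 5' terminal oligopyrimidine tract, through which growth signals control translation. Mitochondrial ribosomes translate the respiratory chain subunits encoded by mitochondrial DNA, while their proteins are made in the cytosol and imported. Mitochondrial translation starts with formylmethionine, and formylated peptides are ligands of formyl peptide receptor 1. Doxorubicin intercalates into DNA, blocks topoisomerase II and inhibits ribosomal RNA synthesis in the nucleolus. Free ribosomal proteins such as Rpl5, Rpl11 and Rpl23 can bind Mdm2, the ligase that degrades p53.

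Each array detected 35.7% to 40.2% of its probes, and arrays of 1 group correlated at 0.976 to 0.992. The 11 arrays lay on 5 BeadChips, and chip 2, with WT PBS 1 and KO PBS 2, was dimmer (median intensity 110 and 118, against 151 to 169 elsewhere). All 9 fibroblast and sarcoma markers were detected on every array. Of the 132 genes that match the pattern, 130 were detected on all 11 arrays. The exceptions were Rpsa, the laminin receptor precursor, whose probe was detected on 3 arrays and on none of WT DX, and Rps4l, detected on 8. No fold is given for Rpsa or Rps4l. RNA of near-identical processed copies can bind the same probe. In all, 88 genes rested on 1 probe while 44 had several, up to 6. The spread between arrays of 1 group was small: the median within-group SD over genes was 0.12 on the log2 scale for the cytosolic and 0.13 for the mitochondrial class, against 0.22 over all genes. Both classes were also brighter, with a median log2 level of 14.0 and 10.7, against 8.54 over all genes. Genes of matched level were not compared, for this spread or for the intervals given further on. In bulk tumour RNA, fewer cells of a type and less RNA per cell cannot be told apart.

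The promoters of both classes were read from RefSeq (GRCm38.p6), 250 bases before to 50 after each annotated start. A run of 8 or more bases that are each C or T, on the gene's strand and within 40 bases of the start, was present in 65.5% of 58 promoters of 48 matched cytosolic genes. It was present in 31.4% of 70 promoters of 64 matched mitochondrial genes and in 29.3% of all 32851 promoters. The letters CCGGAAG, on either strand and anywhere in the 300 bases, occurred in 37.9% of the cytosolic and 37.1% of the mitochondrial promoters, and in 8.86% of all promoters. Its reverse complement starts with C and T letters, so a match can overlap a run of them, and a match describes the sequence only. Stretches of 30 bases are shown for genes described further on, 5' to 3' on the gene's strand. In the first 3 the capitals mark the runs of C and T, and in the last 3 they mark CCGGAAG. The stretches of Rps15a, Rps25 and Rps6 begin at -20, -26 and -15 from the annotated start. The run of Rps25 and the first run of Rps15a end before that start, so a marked run need not be part of the message.
Rps15a, chr7:118116138-118116167, minus strand: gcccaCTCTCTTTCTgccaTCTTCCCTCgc
Rps25, chr9:44407688-44407717, plus strand: cgggCTTCCTTTTTTTCCgacatcttagcg
Rps6, chr4:86857353-86857382, minus strand: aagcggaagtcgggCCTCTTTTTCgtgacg
Mrpl51, chr6:125192099-125192128, plus strand: caggggctaaaCCGGAAGtatttgactgga
Mrpl53, chr6:83109038-83109067, plus strand: ccgcggagccgCCGGAAGcggtccgttcca
Mrps22, chr9:98601672-98601701, minus strand: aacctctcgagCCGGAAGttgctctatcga

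The first comparison asked whether ribosomal protein messages differed between DX and PBS in WT hosts. No cytosolic and no mitochondrial gene passed the threshold (limma, adjusted p under 0.05 over 10623 genes), where 66 genes did (0.621%). At an unadjusted p under 0.05 there were 2 cytosolic genes, 1 in each direction, and 2 mitochondrial genes, both lower, against 11.7% of all genes. The cytosolic class had no common direction: 27 of 57 genes had a difference below 0 and the median log2 difference was 0.01, against 55% of genes and a median of -0.03 over all genes. Its sign was not settled, since the median was -0.03 without WT PBS 2 and with the mean of a gene's probes, -0.01 under median scaling and -0.05 with chip as a fixed block. Apart from Rpl3l and Rps15a, described further on, the cytosolic differences ran from -0.34 for Rpl21 to 0.21 for Rpl22l1. The mitochondrial class lay lower: 58 of 72 genes (80.6%) had a difference below 0 and the median was -0.09, with single genes from -0.49 for Mrps27 to 0.17 for Mrps25. The 95% interval of the difference lay within 1.5-fold either way for 49 of the 57 cytosolic and 61 of the 72 mitochondrial genes, against 51.7% of all genes.

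**Figure D1:**
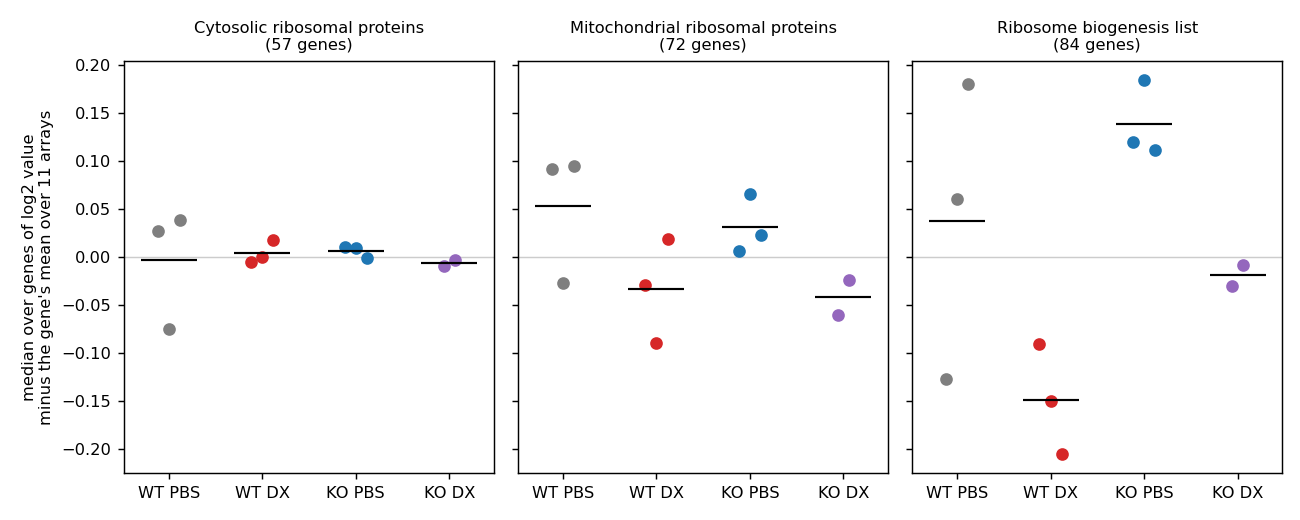
Median over the genes of a class of the log2 value minus the gene's own mean over the 11 arrays (y axis, log2), by group (x axis), for both ribosomal classes and the ribosome biogenesis list, with arrays as points and group means as bars. The mitochondrial medians run from -0.09 to 0.09 and the groups of WT hosts overlap, while the cytosolic medians stay between -0.08 and 0.04.

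The mitochondrial difference was close in size to the spread between arrays. For each array the median over the 72 genes of the log2 value minus the gene's mean was 0.09, -0.03 and 0.09 in WT PBS 1, 2 and 3. It was -0.03, -0.09 and 0.02 in WT DX 1, 2 and 3. The groups overlapped, since WT DX 3 lay above WT PBS 2, and the means were 0.05 ± 0.07 (SD, n = 3) and -0.03 ± 0.05 (SD, n = 3). The 27 small subunit genes did not overlap by this measure: WT PBS lay at 0.08, 0.03 and 0.09, and WT DX at -0.003, -0.11 and -0.01. Of these 27 genes, of which Mrps30 and Mrps18a lie in the large subunit despite their names, 24 (88.9%) had a difference below 0, of the 45 large subunit genes 34 (75.6%). Single genes with every WT DX array below every WT PBS array numbered 10 of 72 (13.9%), against 7.47% of all genes, and none had the opposite order, against 6.26%. Group and chip were partly bound together. On chip 5, the one chip with both groups, WT DX 3 minus WT PBS 3 had a mitochondrial median of -0.09, with 50 of 72 genes below 0, beside a median of -0.06 over all genes. With chip as a fixed block the WT median was -0.09, with 47 of 72 genes below 0. The median over all genes was then -0.06, against -0.03 in the main fit. In the fit with chip, WT DX 2, alone on chip 3, adds nothing to the WT difference. Nor does WT PBS 2, which shared chip 4 with KO DX arrays only.

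The small subunit genes of smallest p in WT hosts were Mrps2, Mrps35, Mrps5, Mrps27, Mrps17 and Mrps18b. Mrps27, which carries pentatricopeptide repeats, had log2 intensities of 7.80, 7.82 and 8.19 in WT PBS and 7.86, 7.37 and 7.10 in WT DX. One WT DX array thus lay within the PBS range, and the difference of -0.49 (SE 0.24, limma adjusted p = 0.46) was not called. Mrps2 gave 8.04, 8.28 and 8.48 in WT PBS against 8.13, 7.61 and 7.93 in WT DX (difference -0.38, SE 0.17, limma adjusted p = 0.411). Mrps35 gave 9.97, 9.80 and 10.15 in WT PBS against 9.71, 9.70 and 9.60 in WT DX. The 2 groups did not overlap, and the difference was -0.31 (SE 0.14, limma adjusted p = 0.417). Mrps5, at 8.94, 8.70 and 8.68 against 8.51, 8.49 and 8.37, did not overlap either (difference -0.32, SE 0.15, limma adjusted p = 0.431). Mrps17, with WT PBS at 12.57, 12.53 and 12.56, had the closest replicates of these and WT DX values of 12.33, 12.40 and 12.27 (difference -0.22, SE 0.11). Among the genes that lay higher after DX, Mrps25 (0.17, SE 0.18), Mrpl55 (0.15, SE 0.14) and Mrpl14 (0.14, SE 0.13) had the smallest p, and their groups overlapped.

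**Figure D2:**
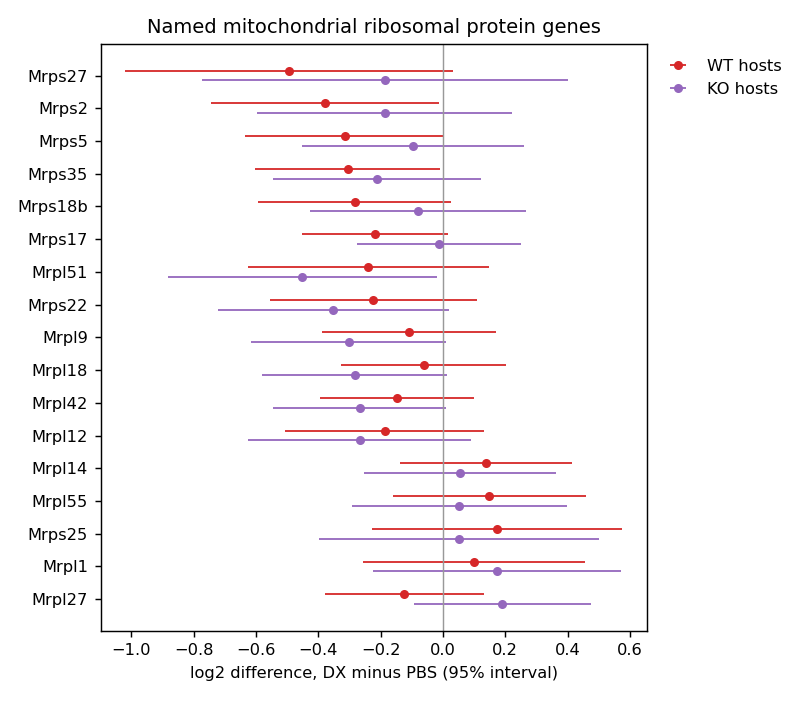
Log2 difference, DX minus PBS, with its 95% interval from the limma fit (x axis) for mitochondrial ribosomal protein genes chosen by smallest p in the 2 DX comparisons (y axis), in WT and KO hosts. The lowest point is Mrps27 in WT hosts at -0.49, and the intervals of Mrps2 and Mrps35 in WT and of Mrpl51 in KO hosts leave out 0.

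The second comparison asked the same in KO hosts, with 3 PBS and 2 DX tumours. No gene of the array passed the threshold (0 of 10623, 0.0%), and 5.36% had an unadjusted p under 0.05, among them 1 mitochondrial and no cytosolic gene. The cytosolic median was 0.002, with 27 of 57 genes below 0, beside 51.3% of genes and a median of -0.01 over all genes. It turned to -0.09 under median scaling, where the median over all genes was -0.04, and to 0.10 with chip as a fixed block, so the sign of the cytosolic class was not settled. The mitochondrial median was -0.10 and 52 of 72 genes (72.2%) lay below 0. The KO PBS arrays gave 0.01, 0.07 and 0.02 for the mitochondrial class and the KO DX arrays -0.06 and -0.02, and these groups did not overlap. Of the 72 genes, 22 (30.6%) had both KO DX arrays below all KO PBS arrays, against 13.7% of all genes, and 4 had the opposite order, against 13.3%. Both KO DX arrays lay on chip 4, whose remaining array, WT PBS 2, had the lowest mitochondrial value of the PBS arrays. With chip as a fixed block, which takes the level of chip 4 from WT PBS 2 alone, the mitochondrial median in KO hosts was -0.01 and 37 of 72 genes lay below 0. The median over all genes was then 0.03.

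Mrpl51, a large subunit protein, had the smallest p of the mitochondrial class in KO hosts. Its log2 intensities were 6.69, 7.35 and 7.29 in KO PBS and 6.66 and 6.65 in KO DX. In WT hosts they were 7.09, 6.83 and 6.78 after PBS and 6.64, 6.63 and 6.72 after DX. Every DX array lay below every PBS array of its own host, by a narrow margin to KO PBS 1. The differences were -0.45 in KO (SE 0.20, limma adjusted p = 0.911) and -0.24 in WT hosts, and 1 of the other 2 Mrpl51 probes gave 0.14 in WT. Mrps22, a small subunit protein, gave 10.63, 10.73 and 10.54 in KO PBS against 10.32 and 10.24 in KO DX (difference -0.35, SE 0.17, limma adjusted p = 0.943). In WT hosts the Mrps22 groups overlapped, with 10.83, 10.50 and 10.69 against 10.55, 10.16 and 10.63. Mrpl9 (-0.30), Mrpl42 (-0.27) and Mrpl18 (-0.28) lay between Mrpl51 and Mrps22 by p in KO hosts, each with groups that did not overlap and an adjusted p of 0.941 from limma. Mrpl12, which binds the mitochondrial RNA polymerase, lay lower in both hosts with overlapping groups. It gave 11.63, 11.40 and 11.63 in WT PBS, 11.24, 11.32 and 11.54 in WT DX, 11.39, 11.78 and 11.65 in KO PBS and 11.26 and 11.42 in KO DX (differences -0.19 and -0.27). Mrpl27 (0.19) and Mrpl1 (0.17) were the highest above 0 among the genes whose KO groups did not overlap.

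**Figure D3:**
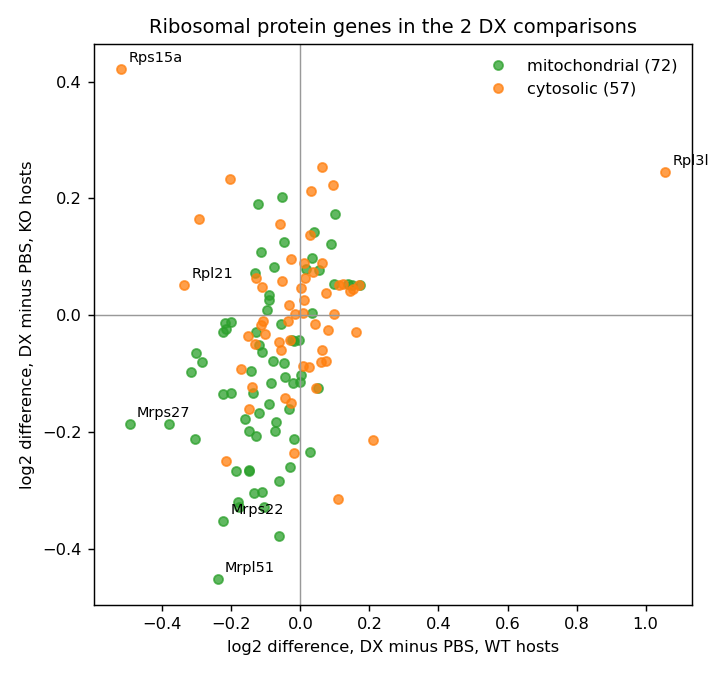
Log2 difference, DX minus PBS, in WT hosts (x axis) against KO hosts (y axis). Each point is a mitochondrial or cytosolic gene; 49 of the 72 mitochondrial points lie below 0 on both axes, while Rpl3l (1.06 and 0.25) and Rps15a (-0.52 and 0.42) stand apart from the other cytosolic points.

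The 2 DX comparisons share no array, though they share chips. Below 0 in both were 49 of 72 mitochondrial genes (68.1%) and 16 of 57 cytosolic genes (28.1%), against 32.3% of all genes. Across genes, which are not independent, the differences in the 2 hosts correlated at 0.41 over the 72 mitochondrial genes, 0.03 over the 57 cytosolic and 0.32 over all genes. Mrpl17, Mrpl42, Mrpl51 and Mrpl53 had all DX arrays below all PBS arrays of their host in both, as had the cytosolic Rpl7l1 and Rps4x, against 1.86% of all genes. These 6 were picked from the values and carry no test. Mrpl42 gave 10.73, 10.75 and 10.70 in WT PBS, 10.65, 10.58 and 10.51 in WT DX, 10.74, 10.72 and 10.90 in KO PBS and 10.47 and 10.58 in KO DX. Mrpl17 gave 12.29, 12.21 and 12.15 in WT PBS against 12.04, 12.15 and 12.09 in WT DX, where the lowest PBS and the highest DX array were nearly equal. Mrpl53 gave 10.63, 10.65 and 10.62 in WT PBS and 10.27, 10.60 and 10.59 in WT DX, so its WT difference of -0.15 came mostly from WT DX 1. Averaged over the 2 hosts, 0.537% of all genes and no ribosomal gene passed the threshold. The mitochondrial median was -0.10 and 6 of 72 genes had an unadjusted p under 0.05, all lower, against 5.37% of all genes. The smallest adjusted p of the class from limma was 0.342, for Mrpl51. With chip as a fixed block the averaged median was -0.02.

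**Figure D4:**
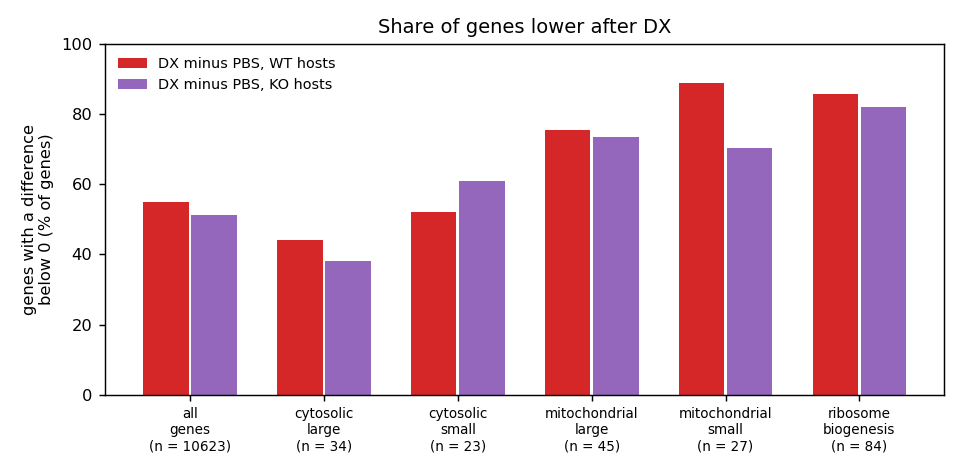
Share of genes with a DX minus PBS difference below 0 (y axis, % of genes, from 0) for all genes tested, the 4 subunit classes and the ribosome biogenesis list (x axis), in WT and KO hosts. The mitochondrial classes lie between 70.4% and 88.9%, the cytosolic ones between 38.2% and 60.9%.

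Among cytosolic genes the proteins of the stalk, which recruits elongation factors, stayed within the spread. Rplp0, Rplp1 and Rplp2 differed by -0.06, -0.05 and -0.15 in WT hosts and by 0.16, 0.06 and -0.03 in KO hosts, with groups that overlapped. Rps6, the substrate of the S6 kinases, differed by -0.03 (95% interval -0.34 to 0.29) in WT and by -0.04 in KO hosts. Rpl23, a binder of Mdm2, differed by 0.03 (95% interval -0.22 to 0.28) in WT hosts and by 0.14 in KO hosts. Rpl26, which binds p53 messenger RNA, differed by 0.07 and -0.08, and Rps27l, a paralogue of Rps27 and a target of p53, by -0.11 and -0.01. Rps19 and Rps14, genes of inherited and acquired anaemias of ribosome failure, differed by 0.04 and 0.10 in WT hosts and by -0.02 and 0.002 in KO hosts. The WT groups of Rps14 did not overlap, though the highest PBS and the lowest DX array were both at 14.72. Rpl5 and Rpl11 were not among the genes measured here.

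Rps4x, the X-linked gene of protein S4, had close replicates. It gave 14.88, 14.97 and 14.90 in WT PBS, 14.78, 14.81 and 14.74 in WT DX, 14.94, 14.82 and 15.03 in KO PBS and 14.81 and 14.81 in KO DX. All DX arrays lay below the PBS arrays of their host, with nearly no gap to KO PBS 2, and the differences were -0.14 (SE 0.11) in WT and -0.12 (SE 0.12) in KO hosts. Rpl21, a large subunit protein, was less even: it gave 9.17, 8.23 and 9.21 in WT PBS and 8.42, 8.65 and 8.53 in WT DX. WT PBS 2 alone lay below the DX arrays, and the difference was -0.34 (SE 0.23, limma adjusted p = 0.608). In KO hosts Rpl39, a large subunit protein also on the X chromosome, gave 14.29, 14.41 and 14.18 after PBS and 14.61 and 14.49 after DX, higher without overlap (difference 0.25, SE 0.14, limma adjusted p = 0.958). Rpl19, of the large subunit too, lay lower without overlap, with 13.29, 13.23 and 13.28 after PBS against 13.01 and 13.05 after DX (difference -0.24, SE 0.14).

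Paralogues were compared within each pair by their differences. Rpl22, which binds RNA, and its paralogue Rpl22l1 differed by 0.03 and 0.21 in WT hosts, and by 0.21 and -0.21 in KO hosts. Rpl36a and Rpl36al differed by 0.10 and -0.15 in WT and by 0.22 and -0.16 in KO hosts. Rpl7l1, the paralogue of Rpl7, had 11.05, 11.24 and 11.24 in WT PBS, 11.01, 10.98 and 10.89 in WT DX, 11.09, 11.46 and 11.14 in KO PBS and 11.01 and 10.95 in KO DX. Rpl7l1 lay lower on every DX array in both hosts. Its averaged difference was -0.23 (SE 0.10, limma adjusted p = 0.402), and its dimmer probe gave 0.32 in WT hosts. Over the genes with several probes, all probes had the same sign in WT hosts for 20 of 26 mitochondrial but 9 of 18 cytosolic genes, and in KO hosts for 15 of 26 and 9 of 18.

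Rpl3l, the paralogue of Rpl3 made in heart and skeletal muscle, had the largest difference of the ribosomal genes in WT hosts, while Rpl3 differed by 0.06 (95% interval -0.20 to 0.32). Rpl3l's log2 intensity was 7.22, 6.52 and 6.37 in WT PBS and 8.34, 6.92 and 8.02 in WT DX. In KO hosts it was 6.41, 6.13 and 6.05 after PBS and 6.81 and 6.07 after DX. WT DX 1 and 3 stood above all other arrays, and WT DX 2 lay within the WT PBS range. The difference in WT hosts was 1.06 (SE 0.35, limma adjusted p = 0.262), and KO minus WT after DX was -1.32 (SE 0.39, limma adjusted p = 0.523). In WT hosts it passed the threshold without WT DX 2 (1.48, limma adjusted p = 0.0288) and with array weights (1.56, limma adjusted p = 0.0291), and it was 0.21 without WT DX 1 and 3. Skeletal muscle markers were read beside it: 12 of 15 were measured and 8 detected on all arrays, with Actn3, Ckm, Myh1 and Myh4 undetected on some arrays. In WT hosts all 12 lay above 0 after DX, where 55% of all genes lay below 0. Of the 12, 4 passed the threshold, against 0.621% of all genes. In KO hosts 10 of the 12 lay below 0, against 51.3% of all genes, while Rpl3l differed by 0.25 (SE 0.39). The summed intensity of the 12 was 5820 to 9348 in WT PBS and 12959 to 25466 in WT DX. It was 5572 to 6131 in KO PBS and 4185 to 6452 in KO DX. WT DX 1 and WT DX 3 had the highest sums, at 25466 and 18583, and the part of muscle in the Rpl3l difference was not tested.

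**Figure D5:**
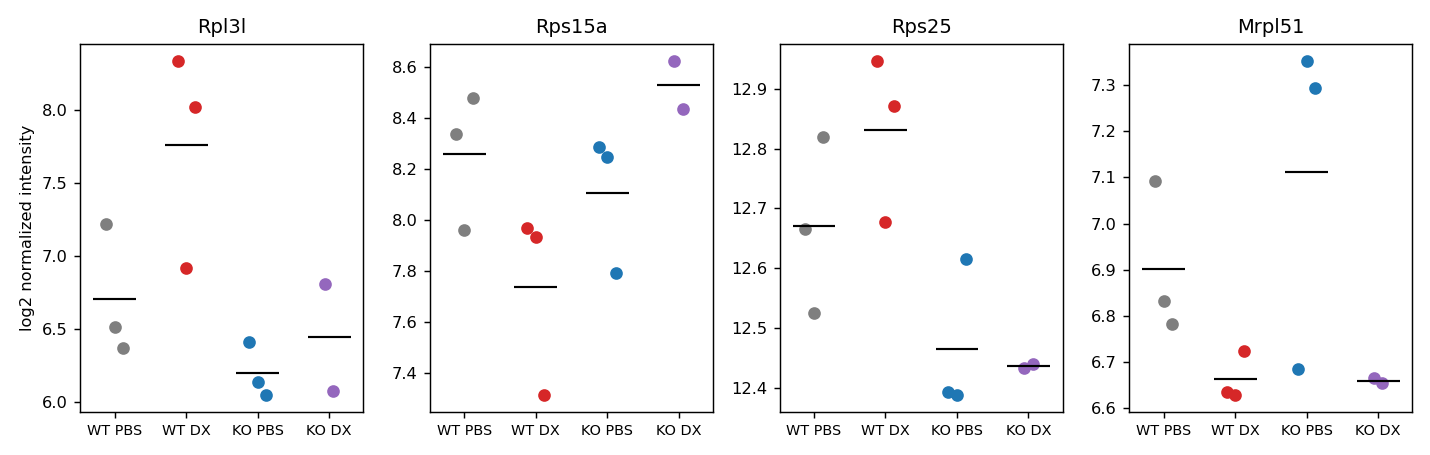
Log2 normalized intensity (y axis, a separate scale for each gene) by group (x axis) for Rpl3l, Rps15a, Rps25 and Mrpl51. Points are arrays and bars are group means; WT DX 1 and WT DX 3 are the highest arrays for Rpl3l, at 8.34 and 8.02.

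The third comparison asked whether the DX difference itself differed between hosts. No gene of the array passed the threshold (0.0%), and 4.69% had an unadjusted p under 0.05. Among the ribosomal genes this was 1 cytosolic gene, Rps15a, a small subunit protein. Rps15a gave 8.34, 7.96 and 8.48 in WT PBS and 7.97, 7.93 and 7.32 in WT DX, where it lay lower with overlapping groups (difference -0.52, SE 0.21, limma adjusted p = 0.374). In KO hosts it gave 8.28, 8.24 and 7.79 after PBS and 8.62 and 8.43 after DX, higher without overlap (difference 0.42, SE 0.24, limma adjusted p = 0.961). The difference of the 2 was 0.94 (SE 0.32, limma adjusted p = 0.905). The class medians of this difference were 0.02 for the cytosolic and -0.02 for the mitochondrial genes, beside 0.02 over all genes. The mitochondrial one was 0.09 with chip as a fixed block and 0.03 without WT PBS 2, and the cytosolic one was -0.07 under median scaling, so neither sign was settled.

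The remaining comparisons set KO against WT hosts, which asks whether the host's receptor went with another level of ribosomal messages in the tumour. After PBS, 1 gene of the array passed the threshold (0.00941%) and none of the ribosomal genes. At an unadjusted p under 0.05 there were 2 mitochondrial genes, 1 in each direction, against 5.48% of all genes. The cytosolic median was 0.003 and the mitochondrial -0.01, with 27 of 57 and 37 of 72 genes below 0, against 49.9% of all genes, and the cytosolic one was -0.05 under median scaling. Mrpl57, a large subunit protein, had the smallest p, with 6.38, 6.25 and 6.42 in WT PBS and 6.77, 6.47 and 6.71 in KO PBS. The groups did not overlap, and the difference was 0.30 (SE 0.12, limma adjusted p = 0.863). Mrps18c, 1 of 3 homologues of bacterial S18, had 11.89, 11.96 and 11.85 in WT PBS against 11.84, 11.50 and 11.11 in KO PBS (difference -0.41, SE 0.19, limma adjusted p = 0.891). The highest KO array lay just below the lowest WT array, and the KO arrays spread over a wider range. Genes whose groups did not overlap were 1 cytosolic (lower in KO) and 6 mitochondrial, 5 of them lower and 1 higher, against 4.48% lower and 4.9% higher over all genes. Within chips, KO PBS 3 minus WT PBS 3 had a mitochondrial median of -0.08 on chip 5, and KO PBS 2 minus WT PBS 1 one of -0.005 on chip 2.

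After DX, no gene passed the threshold in KO against WT hosts (0.0%), and 6.7% had an unadjusted p under 0.05. The cytosolic genes among these were Rpl3l, Rps15a and Rps25, and no mitochondrial gene was. The cytosolic median was 0.02 and the mitochondrial -0.01, against 0.02 over all genes. The cytosolic median was -0.12 under median scaling, with 45 of 57 genes below 0. Groups did not overlap for 9 cytosolic genes higher and 7 lower in KO hosts and for 8 mitochondrial genes higher and 9 lower, against 15.4% higher and 11.7% lower over all genes. Rps25, which some viral messages need to start translation, gave 12.95, 12.68 and 12.87 in WT DX and 12.43 and 12.44 in KO DX. After PBS it gave 12.67, 12.52 and 12.82 in WT and 12.39, 12.39 and 12.61 in KO hosts. It lay lower in KO hosts after both treatments, without overlap after DX only, and the averaged difference was -0.30 (SE 0.10, limma adjusted p = 0.541). Rps15a after DX differed by 0.79 (SE 0.24, limma adjusted p = 0.523). Mrps28, a small subunit protein, gave 10.24, 10.29 and 10.65 in WT DX against 10.10 and 10.07 in KO DX (difference -0.31, SE 0.15, limma adjusted p = 0.786). No chip held both WT DX and KO DX, so there is no within-chip value for this comparison. Averaged over treatments, 4 genes of the array passed the threshold (0.0377%) and no ribosomal gene. Rpl3l, Rps25 and Mrps28 had an unadjusted p under 0.05, all lower in KO hosts, against 7.22% of all genes in either direction.

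A further 3 lists of related genes were read beside the ribosomal proteins. Of 84 measured of 100 ribosome biogenesis genes, which make and process ribosomal RNA, none passed the threshold in any comparison. In WT hosts 72 of 84 (85.7%) lay below 0 after DX with a median of -0.20, against 55% of all genes. Of the 84, 14 had an unadjusted p under 0.05, all lower, against 5.04% of all genes. In KO hosts 69 of 84 (82.1%) lay below 0 with a median of -0.14, against 51.3% of all genes, and 28 had all DX arrays below all PBS arrays, against 13.7%. Below 0 in both hosts were 62 of 84 (73.8%), against 32.3% of all genes. Averaged over hosts the list had a smallest adjusted p of 0.059 from limma. For each array the list's median deviation was -0.13, 0.06 and 0.18 in WT PBS, -0.09, -0.15 and -0.20 in WT DX, 0.12, 0.18 and 0.11 in KO PBS, and -0.03 and -0.01 in KO DX. WT PBS 1, on the dim chip, lay within the WT DX range, while the KO groups did not overlap. Both KO DX arrays lay on chip 4, which held no KO PBS array. No value with chip as a block is given for these 3 lists. For the mitochondrial ribosomal genes that block moved the KO median from -0.10 to -0.01.

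By gene, Rpf1, an assembly factor of the large subunit in yeast, differed by -0.44 (SE 0.12, limma adjusted p = 0.18) in WT hosts. Imp3, a part of the small subunit processome, differed by -0.42 (SE 0.13, limma adjusted p = 0.208). In KO hosts Rrs1, which in yeast brings 5S RNA particles into the large subunit, differed by -0.84 (SE 0.22, limma adjusted p = 0.482), and Nhp2, a core protein of H/ACA particles, by -0.51 (SE 0.15, limma adjusted p = 0.625). In the other direction Tsr3 differed by 0.26 in both hosts, Nmd3, the export adaptor of the large subunit, by 0.26 in WT hosts and Fcf1 by 0.24 in KO hosts.

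Of 43 measured of 50 genes of mitochondrial translation outside the ribosomal symbols, 37 (86.0%) lay below 0 in WT hosts with a median of -0.16, and 25 (58.1%) in KO hosts with a median of -0.08. None passed the threshold. Nsun4, which methylates mitochondrial ribosomal RNA, differed by -0.47 (SE 0.12, limma adjusted p = 0.129) in WT hosts, and Wars2, the mitochondrial tryptophan-tRNA synthetase, by -0.83 (SE 0.22, limma adjusted p = 0.159). Gfm2, which takes part in mitochondrial ribosome recycling, and Nars2, the mitochondrial asparagine-tRNA synthetase, had the smallest p of those above 0, at 0.14 and 0.12. In KO hosts Mtg2, a GTPase of the mitochondrial ribosome, differed by -0.61 (SE 0.28, limma adjusted p = 0.937), and Tsfm, a mitochondrial elongation factor, by -0.32 (SE 0.17, limma adjusted p = 0.958). Above 0 were Mtif2, an initiation factor, at 0.41 (SE 0.24, limma adjusted p = 0.964), and Tfb1m, which methylates mitochondrial ribosomal RNA, at 0.31 (SE 0.18, limma adjusted p = 0.961). Of 20 genes of the cytosolic ribosome and of translation outside the ribosomal symbols, 16 were measured and none passed the threshold. Their medians were 0.03 in WT and 0.01 in KO hosts. Below 0 were 7 and 8 genes, against 55% and 51.3% of all genes. Eef1d, a subunit of the elongation factor 1 exchange complex, differed by -0.21 in WT hosts, with groups that did not overlap, and Nap1l1 by -0.21 with groups that did. Tpt1 differed by 0.47 (SE 0.28, limma adjusted p = 0.55) and Eif3k, a subunit of initiation factor 3, by 0.18 in WT hosts, with overlapping groups. In KO hosts Btf3 differed by -0.25, Nap1l1 by -0.13, Eif3k by 0.29 and Eef2, the elongation factor of translocation, by 0.12.

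Markers of some other cell types differed between DX and PBS. In WT hosts 3 of 6 measured neutrophil markers passed the threshold as higher and 2 of 4 red cell markers as lower. The share over all genes was 0.621%. For macrophage, T cell, B cell, keratinocyte, adipocyte and endothelium markers the array medians of WT PBS and WT DX overlapped. The summed intensity of 6 of 7 neutrophil markers was 651 to 837 in WT PBS and 3078 to 5187 in WT DX. It was 2022 to 2435 in KO PBS and 3428 to 5525 in KO DX. The summed intensity of 4 of 7 red cell markers was 7740 to 26866 in WT PBS and 2000 to 4282 in WT DX. It was 6154 to 12630 in KO PBS and 5153 to 5331 in KO DX. The 3 measured cycling markers summed to 5273 to 7116 in WT PBS and 6473 to 7047 in WT DX. The neutrophil genes Cxcr2 and Retnlg and the red cell gene Alas2 were undetected on some arrays. The part of these cells in the mitochondrial ribosomal protein values was not tested. The 3 matches that are no ribosomal proteins stayed within the spread: Rps6ka3 differed by 0.10 in WT and -0.10 in KO hosts, Rps6ka5 by -0.18 and 0.06, and Rps19bp1 by -0.01 and -0.26.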

How the data were processed

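Total RNA from 11 tumours was labelled as biotinylated cRNA and hybridised to Illumina mouse bead arrays of 45281 probes. The authors deposited probe intensities that are not normalized, with a detection p-value per probe and array, per the file headers. They also deposited a log2 table of 19215 probes. The submitters' processing notes name Partek, with no version and no role, and the steps behind the log2 table are not given in the sources used here. From the values, it equals quantile-normalized log2 intensities with chip effects removed (99.8% of values within 0.001), so a test on it without chip as a term understates the spread. It was used as an alternative only.

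Intensities were background corrected from the detection p-values with an offset of 16, quantile normalized and put on the log2 scale (neqc, limma 3.58.1, R 4.3.3). Probes detected at p under 0.05 on at least 2 arrays were kept (20433), and the brightest probe stood for a gene. Groups and replicate numbers come from the titles, and a fit over 4 groups with 7 residual degrees of freedom gave 7 contrasts, with Benjamini-Hochberg adjustment over 10623 genes and a threshold of 0.05. A level is a log2 normalized intensity and a difference is a log2 difference. The number of arrays limits the precision, and levels of different probes were not compared, apart from the class medians of the level. The scripts were tested on simulated data with 200 changed genes.

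Members and lists (related pathways, markers of other cell types) were chosen with earlier results of these data known. Named were the 5 cytosolic and 5 mitochondrial genes of smallest unadjusted p in each direction in the 2 DX comparisons, 3 and 3 in the others, a list of known paralogues and Mdm2 or disease genes, and 2 genes per direction and pathway list. Genes named for groups that did not overlap were chosen after their values were seen. Alternatives were background correction, scaling, filters, the mean of probes, samples in the fit, chip as a block, a replicate block, array weights, a trend with robust moderation, and leaving out arrays. Pairing by replicate number was not evident: 4 of 15 same-numbered pairs correlated above 0.1 (range -0.29 to 0.30). Each of these 4 joined a KO DX array with a WT array. Deviations from a mean of 2 or 3 arrays depend on each other within a group, so these values cannot exclude pairing.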

Additional observations from a re-analysis of the deposited data

Results flagged for a closer look

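Mrps12, a small subunit protein of the mitochondrial ribosome, lay lower on every DX array in WT hosts and higher on every DX array in KO hosts. It gave 11.71, 11.67 and 11.68 in WT PBS and 11.60, 11.60 and 11.46 in WT DX. In KO hosts it gave 11.59, 11.64 and 11.62 after PBS and 11.68 and 11.70 after DX. The DX difference was 0.20 larger in KO than in WT hosts, and the interaction term had a limma adjusted p = 0.992. By the same values, Mrps12 lay lower in KO than in WT hosts after PBS and higher after DX, without overlap, and the genotype difference changed by 0.20.

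Mrps30, named for the small subunit but part of the large one, had the same order of groups after DX. It gave 11.59, 11.63 and 11.67 in WT PBS, 11.40, 11.57 and 11.57 in WT DX, 11.40, 11.59 and 11.54 in KO PBS and 11.63 and 11.61 in KO DX. The DX difference was 0.22 larger in KO hosts (limma adjusted p = 0.992). Both genes were picked because their groups did not overlap, an order that 13.3% of all genes had upwards and 13.7% downwards in KO hosts. In WT hosts 7.47% of all genes had it downwards and 6.26% upwards. The share of all genes lower in WT and higher in KO hosts without overlap is not given.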

How the results depend on the processing

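No ribosomal gene passed the threshold in any of the 7 comparisons under most settings. The exceptions were 1 cytosolic gene, Rpl3l, with array weights in the WT DX comparison and in KO against WT after DX, 1 without WT DX 2, and the authors' log2 table. That table without chip as a term called 23, 32, 25, 12, 26, 25 and 14 cytosolic and 30, 34, 31, 15, 35, 31 and 30 mitochondrial genes (order: DX in WT, DX in KO, their difference, KO against WT after PBS, after DX, averaged DX, averaged genotype). Without its 2 columns that equal the mean of others it called 9, 21, 20, 3, 19, 9 and 7, and 11, 28, 24, 1, 27, 13 and 5. Its chip effects are already removed, and with chip as a term it called 2 cytosolic genes in WT hosts (Rpl21, -0.59, limma adjusted p = 0.0396, and Rpl3l) and 1 in averaged DX (Rpl3l). Its median within-group SD is 0.072, against 0.22 in the main values. These settings of the authors' table apart from the whole table, and the one without WT DX 1 and 3, were chosen after seeing the data.

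Medians moved as follows. In the authors' table, in all 3 versions, the cytosolic medians were -0.047 for DX in WT, 0.099 for DX in KO, 0.075 for their difference, 0.062 for KO against WT after DX and 0.035 for averaged DX. The mitochondrial ones were -0.0086 for DX in KO, 0.077 for the difference, 0.044 after DX and -0.019 for averaged DX. With chip as a fixed block the cytosolic medians were -0.045, 0.097, 0.075, 0.058 and 0.034, and the mitochondrial -0.011, 0.094, 0.048 and -0.019, in the same order. With the mean of probes the cytosolic medians were -0.029 for DX in WT and -0.035 in KO. Median scaling gave cytosolic medians of -0.092 for DX in KO, -0.072 for the difference, -0.053 for KO against WT after PBS, -0.125 after DX, -0.049 for averaged DX and -0.091 for averaged genotype, and a mitochondrial one of -0.143 for DX in WT. Without WT DX 1 and 3 the mitochondrial medians were -0.15 for DX in WT, 0.051 for the difference and 0.041 after DX. The cause was not tested.

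Leaving out each array in turn gave cytosolic medians of -0.033 to 0.016 (DX in WT, 0 to 1 genes called), -0.013 to 0.033 (DX in KO), -0.033 to 0.043 (difference), -0.030 to 0.012 (after PBS), -0.0031 to 0.035 (after DX), -0.0078 to 0.021 (averaged DX) and -0.021 to 0.011 (averaged genotype). The mitochondrial ranges were -0.138 to -0.056, -0.102 to -0.068, -0.037 to 0.029, -0.029 to 0.022, -0.022 to 0.014, -0.108 to -0.080 and -0.031 to 0.0027. With a replicate block the mitochondrial median was -0.09 for DX in WT and -0.08 for DX in KO, no ribosomal gene was called, and 63 genes of the array were.

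Of 3743 values of 142 gene results, 3413 stayed uncalled and within the replicate spread (1 SD) of the main value, 128 passed the threshold newly and 194 moved. The sign differed from the main one in 137 of the 3743 values. In the authors' table the sign turned, with a call, for Mrps18a (0.16), Rpl3 (0.13) and Rps27l (0.25) in KO hosts and for Rpl22 (-0.22), Rpl36a (-0.20) and Rps6 (0.21) in WT hosts, the last 2 also without the 2 columns.

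Over all genes, the 66 calls of DX in WT hosts became 37 with median scaling, 12 with only those groups, 363 with array weights, 116 with trend and robust moderation, 41 without chip 2, 5 without WT DX 1 and 3, and 10 to 233 without single arrays. In the authors' table they were 5532, 2795 without the 2 columns and 364 with chip. The 57 calls of averaged DX ran from 17 to 338 outside the authors' table, the 4 of averaged genotype from 0 to 39, and the 1 after PBS from 0 to 4. The 0 calls of DX in KO hosts, of the difference and of KO against WT after DX became at most 28, 2 and 136 outside the authors' table, and 5153, 6001 and 6013 in it, 3755, 4124 and 4283 without the 2 columns, and 1, 3 and 4 with chip as a term. Precision was limited by 2 KO DX arrays and by Rpsa and Rps4l near background.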

Other observations

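The DX and PBS arrays of KO hosts shared no chip, and those of WT hosts shared chip 5 alone. Fibroblast and sarcoma markers summed to 34726 to 41892 in WT PBS, 35544 to 37690 in WT DX, 42161 to 44742 in KO PBS and 34429 to 35854 in KO DX. These sums overlapped between DX and PBS in WT hosts and were lower after DX without overlap in KO hosts. The part of these cells in the ribosomal protein values was not tested.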
